A study of Mus musculus with 2 samples.

Results

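The 10 genes described here belong to the osteoclast, the bone-resorbing cell that forms when macrophage precursors fuse. They encode its receptors, its master transcription factor, its fusion proteins, and its proteins for acid secretion and resorption. They were chosen by name, as every non-control probe annotated to Car2, Atp6v0d2, Tnfrsf11a, Dcstamp, Ocstamp, Acp5, Ctsk, Nfatc1, Oscar or Calcr, which gave 13 probes of 55674 on the array. The RNA came from cultures of macrophages grown from mouse marrow, 1 labelled c-Maf+/- (1 copy of the gene for the transcription factor c-Maf is left) and 1 labelled c-Maf-/- (no copy). Marrow cells of both had spent 5 days in CMG14-12 medium as the source of M-CSF, which turns them into macrophages, and then 5 h with LPS, the bacterial lipopolysaccharide that triggers Toll-like receptor 4, at 100 ng/ml. The labels name no RANK ligand, and there was no untreated sample and no wild-type sample. How the c-Maf allele was made, the strain, sex and age of the mice and how many mice gave each RNA are not given in the sources used here. With a single one-colour array for each genotype, the genotypes could not be tested against each other, and each difference is between these 2 arrays.

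Osteoclast formation starts when RANK ligand binds its receptor RANK on a macrophage precursor, and signals from adaptor-linked receptors such as OSCAR join in to switch on the transcription factor NFATc1. NFATc1 then drives the membrane proteins that let cells fuse, DC-STAMP and OC-STAMP, and the resorption machinery. That machinery makes protons with carbonic anhydrase, pumps them onto bone with the vacuolar ATPase, and digests the matrix with cathepsin K. Tartrate-resistant acid phosphatase also belongs to that machinery. LPS is known to act on this programme in ways that depend on whether precursors have already met RANK ligand. In macrophages grown with M-CSF alone the programme is known to be mostly off, although several of its genes are also used by ordinary macrophages.

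Of the 10 genes, 9 had at least 1 probe well above background, by the scanner software's flag, on both arrays (11 probes), Calcr was detected in this sense in c-Maf-/- only, and a second Atp6v0d2 probe in neither genotype. All differences are log2 differences, c-Maf-/- minus c-Maf+/-, of the processed signal after subtracting each array's 75th percentile over its non-control spots. The call used was a 2-fold difference, which is 1 on that scale. Carbonic anhydrase 2 (Car2) was the only 1 of the 9 past it, at -2.29. Atp6v0d2 (-0.87), Tnfrsf11a (-0.85) and Dcstamp (-0.85) were also lower in c-Maf-/- but within 2-fold. Without background subtraction they were at -0.58, -0.85 and -0.445, so the likeness of their values depended on the processing. Acp5 was higher (0.60), and Ocstamp, Oscar, Nfatc1 and Ctsk lay between -0.42 and 0.24. Among all genes with values on both arrays (12419), the share at least 2-fold lower in c-Maf-/- was 1.74% and the share at least 2-fold higher was 1.43%. Of the calls over all genes, 45.0% were on the higher side, and 64.9% with spike-in scaling.

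Because each value rests on short probes, the stretches that were read are shown for the genes on which the description turns. Each line gives 30 of a probe's 60 bases in the sense of the transcript, 5′ to 3′, and capitals mark the letters AATAAA, the usual polyadenylation signal near the end of a transcript.
Car2, chr3:14900206-14900235, plus strand: cctctcatccgttgtgcttactaacaaaat
Atp6v0d2, measured probe, chr4:19805397-19805426, minus strand: agcagaatgcatctcacagaggcatcgaac
Atp6v0d2, undetected probe, chr4:19804334-19804363, minus strand: acagaaataatgtgaactaattttactata
Tnfrsf11a, chr1:107741892-107741921, plus strand: ccttgagagctaagttcaggtgaccttgtc
Dcstamp, chr15:39592444-39592473, plus strand: tctgaaaccttaagcccaAATAAAtccttc
Ocstamp, chr2:165220960-165220989, minus strand: ctagacttctgacgtttagtgAATAAAaat
Acp5, stretch shared by both probes, chr9:21931190-21931219, minus strand: aagtcttactgtcactgctattcAATAAAa
Calcr, chr6:3635970-3635999, minus strand: ggacggattgaaggaaggatgttttttcaa

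Coordinates are those of the array files, mouse build mm9, and whether a probe lies in coding or untranslated sequence is not stated here. The letters AATAAA stood in 5 of the 13 probes, those of Acp5 (both), Dcstamp, Ocstamp and Oscar, against 10.1% of all 55681 probe sequences. The 2 Acp5 probes overlap by 45 bases and so read nearly the same site. The 2 Atp6v0d2 probes lie 1063 bases apart, and the one that was not detected had a GC content of 26.7%, the lowest of the 13, at or above only 1.17% of all probes. The other member probes had up to 45.0% GC, and the median over all probes was 43.3%.

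Maf itself went with the genotype labels. Its brighter probe had a signal of 15101 on the c-Maf+/- array and 12.6, below detection, in c-Maf-/-, at least 636-fold lower, and its other probe was at least 22.8-fold lower. Which part of the gene was deleted is not stated in the labels. The cultures carried macrophage transcripts, with 8 of 8 fixed macrophage markers well above background on both arrays, among them Csf1r, the M-CSF receptor gene, at -0.03. The 1 marker past 2-fold was Mertk, a receptor for dying cells, at -1.91. The median of the 8 was -0.21, with 5 below 0 and 3 above. Apart from Mertk they ran from Fcgr1 at -0.575 to Lyz2 at 0.58, and Csf1r was the nearest to 0. Transcripts tied to sex also differed between the arrays, as was seen after the values were known. Xist, the X-inactivation transcript, was detected in c-Maf+/- only, with signals of 263 and 115 at its probes and at least 11.1-fold and 4.85-fold lower in c-Maf-/-. The Y-linked genes Ddx3y (0.50) and Eif2s3y (0.64) were detected in both. Whether the cultures came from mice of different sex is not stated in the labels, and such a difference cannot be told apart from genotype here. Both arrays had close to the same share of spots well above background (45.3% and 44.9%), and no spot was saturated. Spots of 1 probe, where a probe had at least 8, gave log2 differences with a median SD of 0.21 at mean signals under 200, 0.09 from 200 to 1000 and 0.04 from 1000 up. The 95th percentiles of that SD were 0.47, 0.12 and 0.07. Each member probe had a single spot, so the errors below are those the scanner software attached to the spot, and none of these spreads covers cultures or mice.

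**Figure D1:**
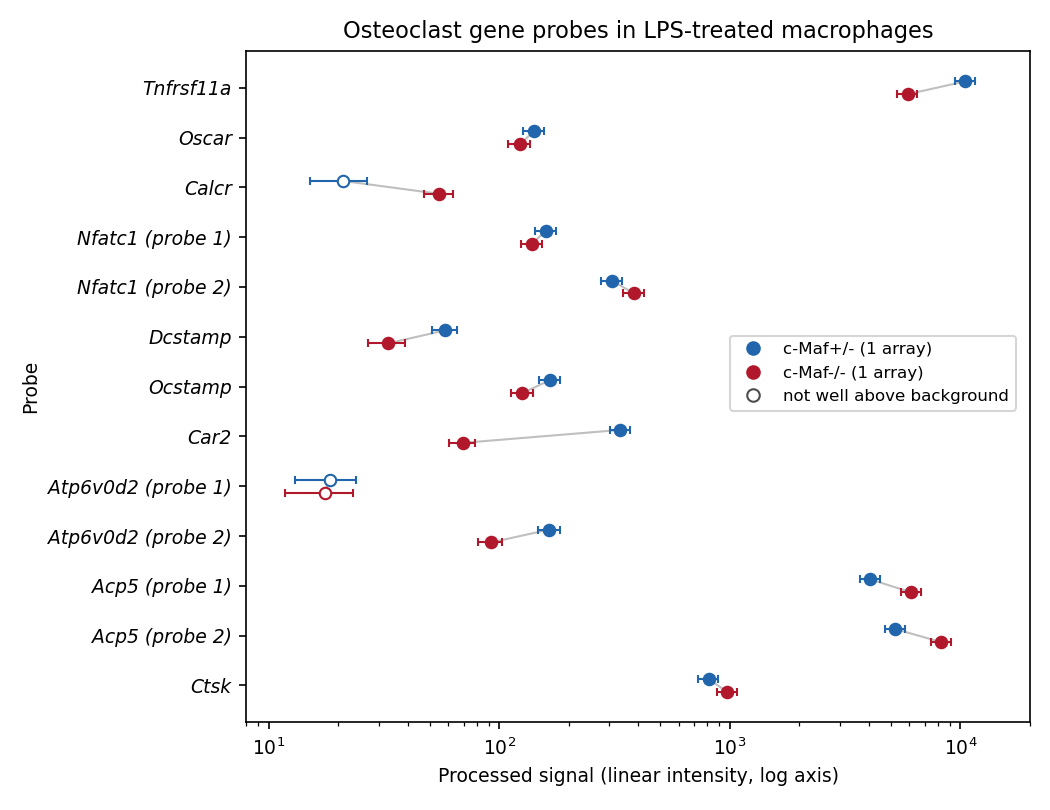
Processed signal (linear intensity on a log axis) of each of the 13 probes on the c-Maf+/- array (blue) and the c-Maf-/- array (red), with bars for the scanner software's error of the spot and open circles where the spot was not well above background. Car2 has the widest gap between filled circles, 335 against 69.5, while both Acp5 probes have the red circle to the right.

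Among the receptors, RANK itself was lower. Tnfrsf11a, which encodes RANK, the receptor that starts the programme, had a signal of 10516 (error 1052) in c-Maf+/- and 5919 (error 592) in c-Maf-/- macrophages. The c-Maf-/- array was thus 1.81-fold lower, a log2 difference of -0.85 with an error of 0.20, and of all genes 2.67% had a value as low or lower. The detection limit of an array, taken as its lowest detected signal, was 22.3 in c-Maf+/- and 24.2 in c-Maf-/-. Tnfrsf11a lay far above it in both. Its signal was high, and Tnfrsf11a was also the lower gene that depended least on how background was treated. It stood at -0.84 with normexp correction (a model that estimates signal and background together) and at -0.85 without background subtraction. Spike-in scaling, which moves every gene by the same amount, put it at -0.72.

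Of the other receptor genes, Oscar was nearly the same in both genotypes relative to its error, and Calcr was near the detection limit. Oscar encodes an immunoreceptor that signals through an adaptor chain alongside RANK, and it had signals of 142 (error 15.0) and 123 (error 13.4). Its difference of -0.23 was about the size of its error of 0.22, and 22.3% of all genes were as low or lower. Calcr encodes the calcitonin receptor, a marker of mature osteoclasts. Its signal was 20.9 (error 5.75), not well above background, in c-Maf+/- and 55.0 (error 8.04) in c-Maf-/-. Against the detection limit of the c-Maf+/- array it was at least 2.42-fold higher in c-Maf-/-, but at least 1.37-fold with normexp and 1.43-fold without background subtraction. This is a dim spot seen on 1 array, and among genes with a mean signal under 100 the 2-fold calls were 3.18% higher and 2.75% lower.

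Nfatc1, the transcription factor that commands the programme, was close to 0 as a gene, but its probes had opposite signs. The probe annotated to transcript variant 2 had signals of 308 (error 31.1) in c-Maf+/- and 384 (error 38.7) in c-Maf-/-, a difference of 0.29. The probe annotated to transcript variant 1 had 159 (error 16.5) and 139 (error 14.8), a difference of -0.22. The difference of 0.29 was larger than its error of 0.21, and that of -0.22 was about the size of its error of 0.215. The gene's value of 0.04 is the mean of these differences. With the brighter probe alone the gene stood at 0.29.

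The fusion genes were dim and both lower in c-Maf-/-. Dcstamp encodes DC-STAMP, a multi-pass membrane protein without which osteoclasts stay mononuclear, and it had signals of 58.4 (error 7.38) and 33.0 (error 5.94). That is 1.80-fold lower, a difference of -0.85 with an error of 0.32, the largest error of the 9 genes. The c-Maf-/- signal was not far above that array's detection limit of 24.2, and the difference shrank to -0.38 with normexp and to -0.44 without background subtraction. Ocstamp encodes OC-STAMP, a second membrane protein needed for fusion, and had signals of 166 (error 17.3) and 126 (error 13.8). Its difference was -0.42 with an error of 0.22. Because Dcstamp and Ocstamp had a single spot each, neither difference could be set against a spread of its own spots.

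The acid-secretion genes held the largest difference. Car2 encodes carbonic anhydrase 2, the cytosolic enzyme that supplies protons for bone resorption, and its signal was 335 (error 33.9) in c-Maf+/- and 69.5 (error 9.07) in c-Maf-/-. It was 4.91-fold lower, -2.29 with an error of 0.24. In the reported setting it stood 7th from the lowest of the 12419 genes measured on both arrays, a ranking that leaves out Maf. Both signals were well above background, and the difference stayed past 2-fold under each of 9 alternative settings, from -2.29 with quantile normalization to -1.76 without background subtraction and -1.54 with normexp. Atp6v0d2 encodes the d2 subunit of the vacuolar ATPase, an osteoclast-enriched form that also takes part in fusion. Its detected probe had signals of 165 (error 17.5) and 92.0 (error 11.1), 1.83-fold lower, a difference of -0.87 with an error of 0.23. Its other probe had 18.4 and 17.5, not well above background on either array, and including it brought the gene to -0.49, the same as the -0.49 of normexp with the detected probe alone.

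Acp5 and Ctsk, also of the resorption machinery, did not share the lower values of Car2 and Atp6v0d2. Acp5 encodes tartrate-resistant acid phosphatase, the classical stain for osteoclasts, which macrophages also express. Its probes had signals of 4059 (error 406) and 5229 (error 523) in c-Maf+/- and 6114 (error 611) and 8260.3 (error 826) in c-Maf-/-. They gave 0.57 and 0.63, a gene value 1.52-fold higher, and 5.11% of all genes were as high or higher, but because the probes overlap they are close to 1 measurement. Ctsk encodes cathepsin K, the collagen-degrading protease of the osteoclast, and had signals of 809 (error 81.2) and 973 (error 97.5). Its difference of 0.24 was little more than its error of 0.20.

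**Figure D2:**
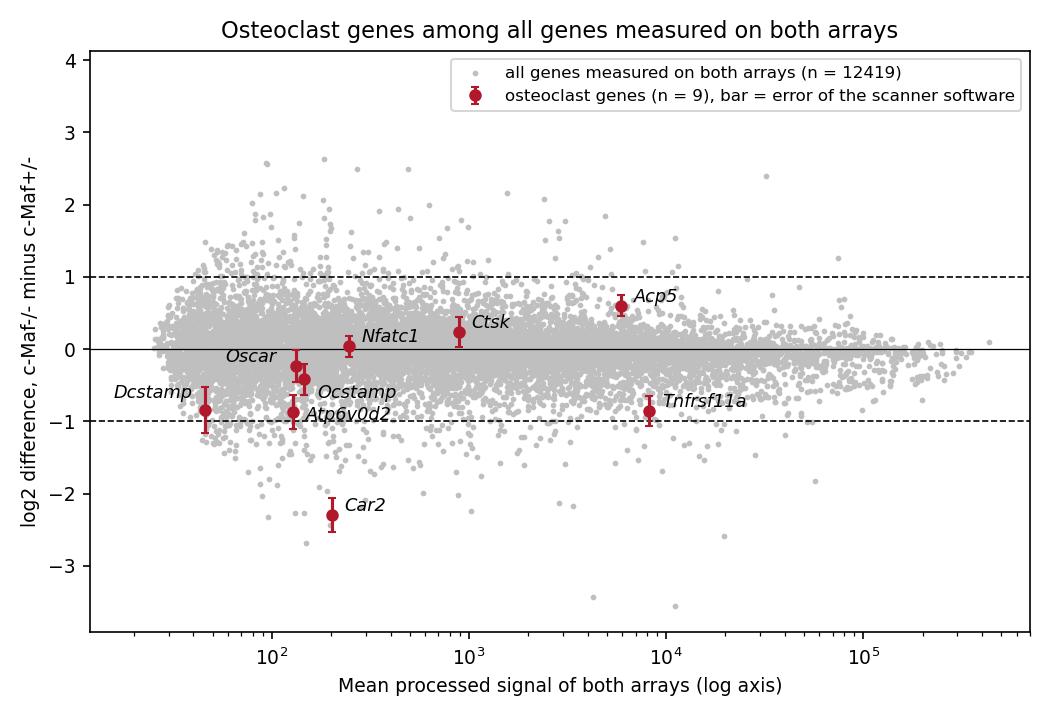
Log2 difference (c-Maf-/- minus c-Maf+/-) against the mean processed signal of both arrays (log axis) for all 12419 genes measured on both (grey) and the 9 measured osteoclast genes (red, bars show the scanner software's error), with dashed lines at 2-fold. Car2 lies apart at -2.29, Tnfrsf11a and Acp5 lie at high signal on opposite sides of 0, and Calcr is not drawn because it was measured on 1 array only.

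Over the 9 genes, 6 had a value below 0 and 3 above, with a median of -0.42, against a median of -0.02 and 53.7% below 0 over all genes. The members ranged from -2.29 to 0.60, with an SD of 0.85, against an SD of 0.41 over all genes. The same 6 genes were below 0 and the same 3 above it under every setting, although Nfatc1 and Oscar came within 0.10 of 0 in some. With 9 genes chosen with earlier results known, these counts are a description only. In bulk RNA, fewer cells of a type and less RNA per cell cannot be told apart.

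The genes around the 10 in osteoclast biology were taken as 10 lists holding 137 genes, of which 117 were measured on both arrays. Past 2-fold were 2 of the 117, or 1.71%, against 3.16% either way for all genes, and both were lower. With spike-in scaling 0 were lower and 1 was higher, and quantile normalization gave 2 lower and 1 higher, as did the percentile over detected probes. Values below 0 made up 68.4% of them, against 53.7% for all genes, but 39.3% against 32.5% with spike-in scaling, which moved the median of all genes to 0.11, so small list medians have no settled sign.

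**Figure D3:**
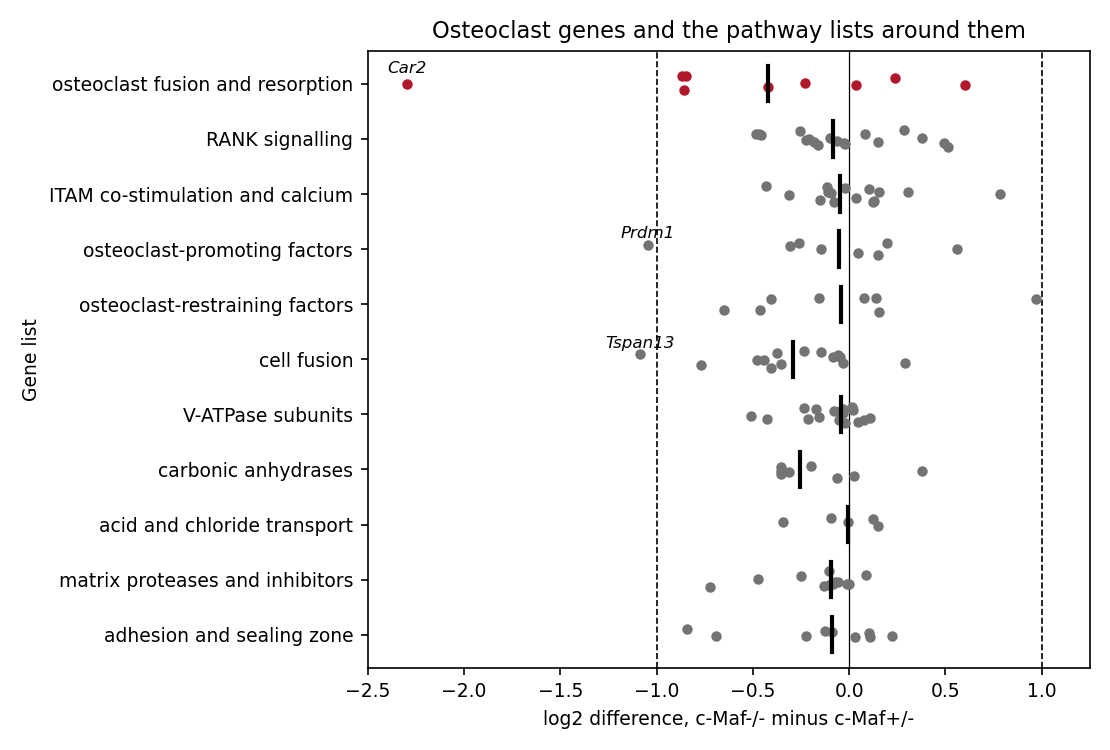
Log2 difference (c-Maf-/- minus c-Maf+/-) of each gene measured on both arrays, for the 9 osteoclast genes (red) and for each of the 10 lists around them (grey), with a vertical bar at each median and dashed lines at 2-fold. The lists sit close to 0, with medians from -0.29 to -0.00, and Prdm1 and Tspan13 are the grey points past the line.

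In the RANK signalling list, 18 of 20 genes were measured, none past 2-fold, with a median of -0.08 that turned to 0.06 with spike-in scaling. Traf6, the adaptor that RANK recruits, was at 0.51 and Map3k14, the kinase of the non-canonical NF-kB branch, at 0.49. Tnfsf11, which encodes RANK ligand, and its decoy receptor gene Tnfrsf11b were not well above background on either array, with signals under 7. In the list of co-stimulatory adaptors and calcium signalling, 16 of 17 were measured, none past 2-fold, with a median of -0.05. The farthest were Sirpb1a at 0.78, a member of a family of close copies whose probes may read relatives, and the receptor gene Trem2 at -0.43.

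Factors that promote osteoclast formation had a median of -0.05 over 8 measured genes. Prdm1, which encodes Blimp1, a repressor that removes inhibitors of NFATc1, went from a signal of 974 to 481, a difference of -1.05 that lay within 2-fold with spike-in scaling (-0.91), with normexp (-0.93) and without background subtraction. Tfeb, a regulator of lysosome genes, was at 0.56. Factors that restrain osteoclast formation had a median of -0.04 over 8 genes. Irf8, which encodes an inhibitor that Blimp1 represses, was at -0.65.

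Genes of cell fusion other than the members had a median of -0.29 over 14 measured. Of these, 13 were below 0, some only slightly, against 53.7% of all genes. Tspan13, a tetraspanin gene, went from 1423 to 683 (-1.08, but -0.95 with spike-in scaling), and Cd200, a surface ligand, was at -0.77. With spike-in scaling the list's median was -0.16, with 9 of 14 below 0, against 32.5% of all genes. Other subunits of the vacuolar ATPase had a median of -0.04 over 19 measured genes, none past 2-fold, against the -0.87 of Atp6v0d2. The farthest were Atp6v0a1 (-0.51) and Atp6v1d (-0.43). The ubiquitous partner of the d2 subunit, Atp6v0d1, was at -0.03, and Tcirg1, which encodes the a3 subunit of the osteoclast pump, was at -0.02. Atp6v0d1 and Tcirg1 are named for comparison and were added after their values were seen.

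Other carbonic anhydrase genes were not past 2-fold in any of 8 measured, with a median of -0.26, against the -2.29 of Car2. The farthest were Car1 (0.38) and Car7 (-0.36). Genes of chloride transport and acid vesicle traffic had a median of -0.00 over 5, led by Snx10 (-0.34) and Ostm1 (0.15). Matrix proteases and their inhibitors had a median of -0.09 over 12, with 11 below 0 and none past 2-fold. With spike-in scaling the median turned to 0.04, with 3 of 12 below 0. In that list cathepsin L (Ctsl) was at -0.72 and the elastase gene Mmp12 at -0.47. Genes of adhesion and the sealing zone, the actin ring with which an osteoclast grips bone, had a median of -0.09 over 9, with the ubiquitin ligase gene Cblb at -0.84 and the exchange factor gene Vav3 at -0.69.

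Several of the 10 genes are also expressed outside osteoclasts, so markers of other cells were read beside them. Dcstamp and Oscar are known in dendritic cells. Of 8 dendritic cell markers, 6 were well above background on each array, with a median of -0.75 (-0.46 with normexp). Fscn1 was at -1.50 and Itgax at -1.09 (-0.77 with normexp), but the dim Flt3 was at 0.47 and Ccr7 at -0.05. The summed signal over the list went from 3096 to 2589, of which Ccr7 gave 2096 and 2058. Xcr1 and Cd209a were not well above background on either. Car2 is known in erythroid cells. Of 8 erythroid markers, 3 were well above background on each array, and Hbb-b1, Alas2, Klf1 and Epb42 were among those that were not on either. Of the other 3, Hba-a1 (0.83, or 0.30 with normexp) and Slc4a1 (0.72, or 0.33 with normexp) were dim, with signals from 30.7 to 56.0, and the brighter Ermap was at -0.09. The summed signal over the list of 8 was 949 and 962. Neutrophil markers were well above background in 8 of 8 on both arrays, with a median of -0.82. At least 2-fold lower were 4 (Ngp, Ltf, Mpo and S100a9), or 3 with spike-in scaling, against 1.74% of all genes. The granule genes Ngp and Ltf were at -1.45 and -1.41, but the granule gene Elane was at -0.035, with signals of 1855 and 1844. The summed signal over the list was 99907 and 55252, of which S100a9 gave 68498 and 34671. S100a9, at -1.01, was past 2-fold in 6 of 10 settings and stood at -0.87 with spike-in scaling, and Mpo, at -1.21, stood at -0.82 with normexp. For osteoblast and stromal markers the median was -0.60 over 2 measured of 9, and the summed signal went from 567 to 485. Bglap, named after its value was seen, was detected in c-Maf-/- only. Its bound of at least 7.12-fold higher comes from detected signal only and from the reported setting only. Averaged over its probes, detected or not, the signal was 5.29 in c-Maf+/- and 83.6 in c-Maf-/-, so its probes did not read alike. The part that the dendritic, erythroid, neutrophil and stromal markers play in the values of the 10 genes was not tested.

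Promoter sequences from RefSeq (GRCm38.p6, 250 bases before to 50 after a start site) were held for 5 of the 10 genes, Tnfrsf11a, Ctsk, Calcr, Oscar and Acp5, in 8 windows. They were searched on both strands for the Maf recognition element, the sequence that large Maf proteins bind, by the letters TGCTGA that make up each arm of its palindrome. They were in 1 window, that of Oscar, and in 19.5% of all 32851 promoters. It lies 202 bases before the start site at chr7:3616342-3616371, minus strand, and is shown with capitals for the match.
Oscar, promoter stretch: ttctctcctcagTGCTGAggctactctggg

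The AP-1 site TGANTCA, which forms the centre of one form of the Maf element, and the E-box CACGTG were in none of the 8 windows, against 7.81% and 7.15% of all promoters. The NFAT core GGAAA was in 6 of the 8, against 61.3% of all promoters. These are letter matches only and say nothing about binding.

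**Figure D4:**
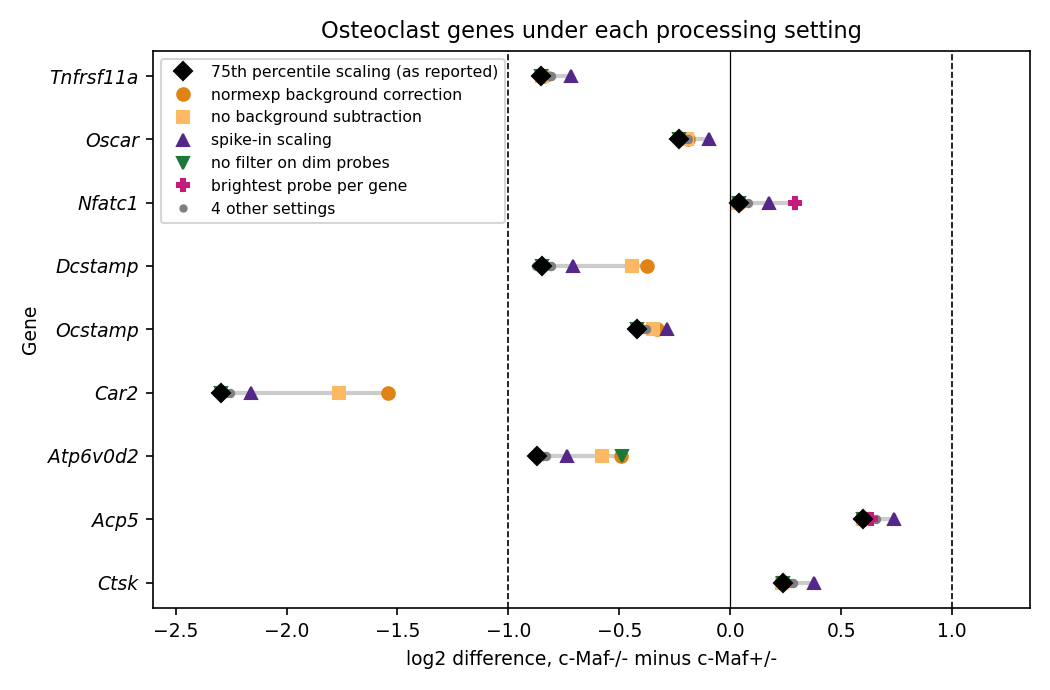
Log2 difference (c-Maf-/- minus c-Maf+/-) of each of the 9 measured genes under the reported setting (black diamond) and 9 alternatives, with dashed lines at 2-fold. Every gene keeps its side of 0, Car2 stays past 2-fold from -2.29 to -1.54, and the widest spans are those of Car2, Dcstamp and Atp6v0d2.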

How the data were processed

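Total RNA (50 ng per array) was labelled with Cy3, per the labels' protocols. Scans of array design 028005 were read with Agilent Feature Extraction, version 10.7.3.1 (protocol GE1_107_Sep09), and the deposited values are its spot intensities, per the file headers. Per the file headers, each array's signal had been corrected for background and spatial trend but not scaled to the other array. The other deposited columns used were the mean and background intensities, the error of the processed signal, and 0 and 1 flags. The deposited p-value of each spot against background was not used.

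From these intensities log2 values were computed, less each array's 75th percentile over 59305 non-control spots (291 on the c-Maf+/- array, 296 on the other). Outlier spots (136 and 149) were left out and a probe's remaining spots averaged. A gene is the mean of its probes well above background on both arrays. The error of a log2 difference combines both spots' deposited errors. A gene detected on 1 array has a bound against the higher of the other array's lowest signal well above background and the probe's own signal. Genes were named through RefSeq by accession or symbol. The number of arrays (1 per genotype) limits the precision, and no p-value was computed.

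The code that counts 2-fold calls was checked on simulated data. Named are the 10 members, Maf, and in each list the 2 genes farthest from 0 and those past 2-fold, except items that are not reported here. The members and lists were chosen with earlier results of these data known. Normexp (offset 50), quantile and loess normalization used limma 3.58.1 in R 4.3.3, and the rest Python 3.11.15.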

Additional observations from a re-analysis of the deposited data

How the results depend on the processing

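Each gene was recomputed under 9 other settings. Without the filter on dim probes, 1 gene (Calcr, at 1.37) was at least 2-fold higher, against 0 as reported; the count of 1 lower gene (Car2) was the same under all 9. The median over the measured genes ranged from -0.42 to -0.28, the latter with spike-in scaling. Over all genes, the counts lower and higher were 216 and 177 as reported. They were 109 and 68 after normexp, 124 and 82 where no background was subtracted, and 142 and 262 by spike-in scaling. With dim probes kept they were 871 and 885 of 22615 genes, or 3.85% lower and 3.91% higher. As reported, the shares were 1.74% and 1.43% of 12419 genes. Background treatment moved the dim genes Car2, Atp6v0d2 and Dcstamp by more than their error. It moved Tnfrsf11a, Acp5 and Ctsk by less than theirs. No paired analysis was possible because each genotype has 1 array, and no array could be left out for the same reason. Signals near background limit Calcr, Dcstamp and the second Atp6v0d2 probe.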
